A study of Mus musculus with 28 samples.

Results

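Transcripts of 38 lysosome genes were followed in mouse macrophages that had been differentiated in culture from bone marrow. The genes were taken from a fixed list of names. It held 11 peptidases, 11 glycosidases and sulfatases, and 6 genes grouped here under lipid degradation, among them Grn, which encodes progranulin. The rest were 3 for a nuclease and phosphatases, 5 membrane proteins and the 2 regulators Tfeb and Tfe3. All 38 were found by symbol among 55487 gene IDs, and all 38 had at least 1 TPM (a transcript level corrected for gene length and set to the same total in every library) in at least 4 of the 28 libraries, the level set for testing. The study asked how taking up dying T cells changes macrophage transcripts under different cytokines. Wild-type macrophages were kept for 48 h without a polarizing cytokine (M0) or with 50 ng/mL of interferon-γ (IFN-γ, which activates macrophages for defence) or of interleukin-10 (IL-10, which restrains inflammation). T cells made apoptotic with ATP/NAD+ and marked by a fluorescent CD4 antibody were offered, either regulatory T cells (Treg) or conventional CD4 T cells (Tconv). Sorting then gave, for each cytokine, a Treg-phagocytic group, a Tconv-phagocytic group and a non-phagocytic group, so that with M0 there were 7 groups of 4 libraries. The M0 labels name no T cells, uptake or sort, so that in every comparison with M0 the cytokine, the T cells and the sorting cannot be told apart.

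Lysosomes are acidic compartments in which macrophages take apart the dead cells and particles they have engulfed. Their hydrolases are made in the secretory pathway, carried to the lysosome by mannose 6-phosphate receptors, and work at the low pH set by a proton pump, the V-ATPase. Heavily glycosylated membrane proteins such as LAMP1 and LAMP2 line the compartment, and the channel TRPML1, encoded by Mcoln1, lets calcium out of it. TFEB and TFE3 are related transcription factors that enter the nucleus when the kinase complex mTORC1 is inactive, or when calcium from TRPML1 activates calcineurin, and they drive many lysosome genes through an E-box motif in their promoters.

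The libraries were not equally rich. Between 14148 and 16295 genes were above 0 in the 12 IFN-γ libraries and between 16942 and 18457 in the 16 others, and the deposited values give no read counts, so the depth in reads is not known. Log2 levels of libraries of a group correlated across genes at 0.950 to 0.965 under IFN-γ and at 0.987 to 0.993 elsewhere. Each comparison was therefore fitted on its own groups, and a difference of a given size was harder to call under IFN-γ. Macrophage markers such as Lyz2 and Cd68 were high everywhere (summed level of 8 genes 16527 to 21299 TPM). The summed level of 10 T cell markers was 393 to 754 TPM in the IFN-γ libraries, 63.8 to 177 TPM in the IL-10 libraries and 35.7 to 116 TPM in M0, so T cell RNA moved with the cytokine. In bulk RNA, fewer cells of a type and less RNA per cell cannot be told apart. The labels do not say whether libraries of a group came from separate cultures or animals, so the p-values measure only the spread between these libraries. Fold changes and tests were made after each library was scaled by the trimmed mean of its gene ratios, on log2(scaled TPM + 1), which understates the change of low genes. The log2 scaling factor, which is subtracted from a library's log2 TPM, averaged -0.15 in IFN-γ non-phagocytic, 0.16 in IL-10 non-phagocytic and 0.15 in M0 libraries. Without uptake, IFN-γ values were thus raised against both other groups. The factor averaged -0.22 in IFN-γ Treg-phagocytic and -0.099 in IFN-γ Tconv-phagocytic libraries. In IL-10 Treg-phagocytic and Tconv-phagocytic libraries it averaged 0.08 and 0.08. Scaling therefore also raised Treg-phagocytic values against the other IFN-γ groups, and IL-10 phagocytic values against IL-10 non-phagocytic ones. Without scaling, the median log2 fold change of all genes tested was -0.26 for IFN-γ against IL-10 and -0.24 for IFN-γ against M0 (non-phagocytic groups), and 0.00 in both with it. Single values below are TPM as deposited, without that scaling. Where groups are said not to overlap for a gene, the share of all genes doing so was not counted.

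The 38 genes together held a large part of the macrophage transcriptome, led by Psap (the precursor of the saposins, which help enzymes reach membrane lipids), Ctsb, Ctsd and Ctss (3 cathepsins). In M0 they took 5.59% to 5.87% of all TPM. The share was 5.87% to 5.95% in IL-10 non-phagocytic, 5.85% to 5.99% in IL-10 Tconv-phagocytic and 5.92% to 6.06% in IL-10 Treg-phagocytic libraries. Under IFN-γ it was 3.70% to 3.79% without uptake, 3.60% to 3.83% with Tconv uptake and 3.94% to 4.03% with Treg uptake. No IFN-γ library reached any M0 or IL-10 library, and the 4 IFN-γ Treg-phagocytic libraries lay above the 8 other IFN-γ libraries. Psap, Ctsb, Ctsd and Ctss made up most of the share, with 4.00% to 4.27% of all TPM in M0. Under IFN-γ these 4 took 2.54% to 2.60% without uptake, 2.45% to 2.65% with Tconv uptake and 2.73% to 2.81% with Treg uptake. Mean levels across genes ran from single digits for Ids, the iduronate sulfatase (6.65 ± 0.81 TPM, SD, n = 4, after Treg uptake under IFN-γ) to 14425 ± 706 TPM (SD, n = 4) for Psap in M0.

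**Figure D1:**
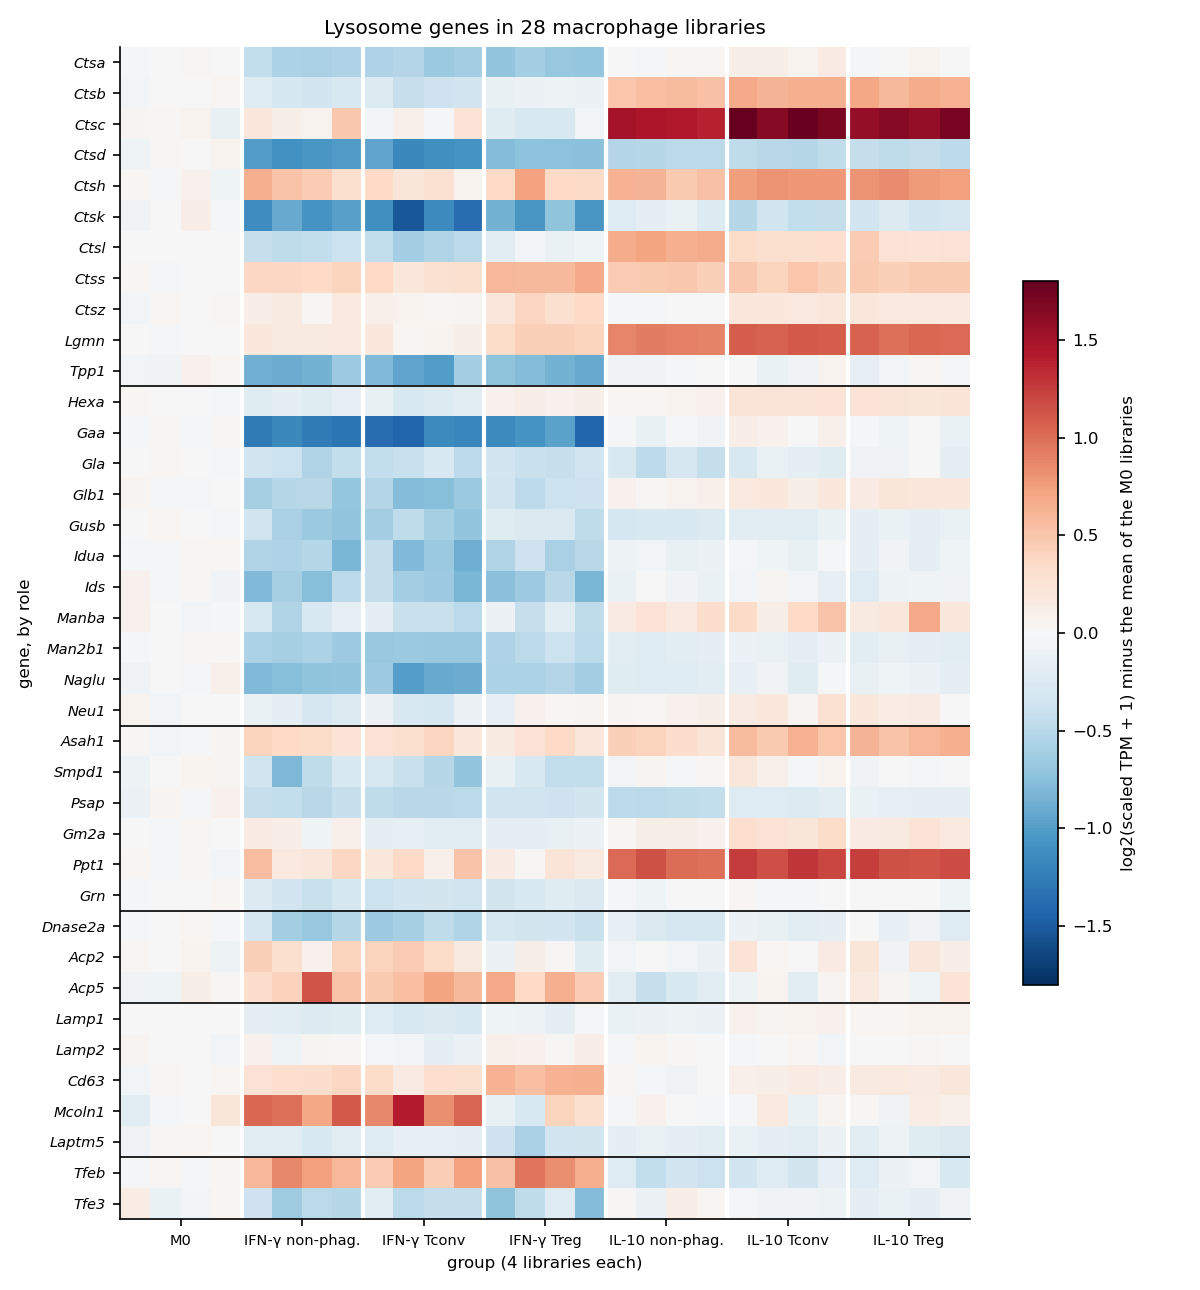
Heat map of the 38 lysosome genes (rows, ordered by role, lines between roles) in 28 libraries (columns, 4 per group). Colour gives log2(scaled TPM + 1) minus the mean of the 4 M0 libraries. Glycosidases are below M0 in the IFN-γ non-phagocytic libraries, but Hexa is above it in the IFN-γ Treg-phagocytic libraries. Ctsc, Lgmn and Ppt1 stand above M0 in the IL-10 libraries, and Mcoln1 is above it in IFN-γ non-phagocytic and Tconv-phagocytic libraries.

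**Figure D2:**
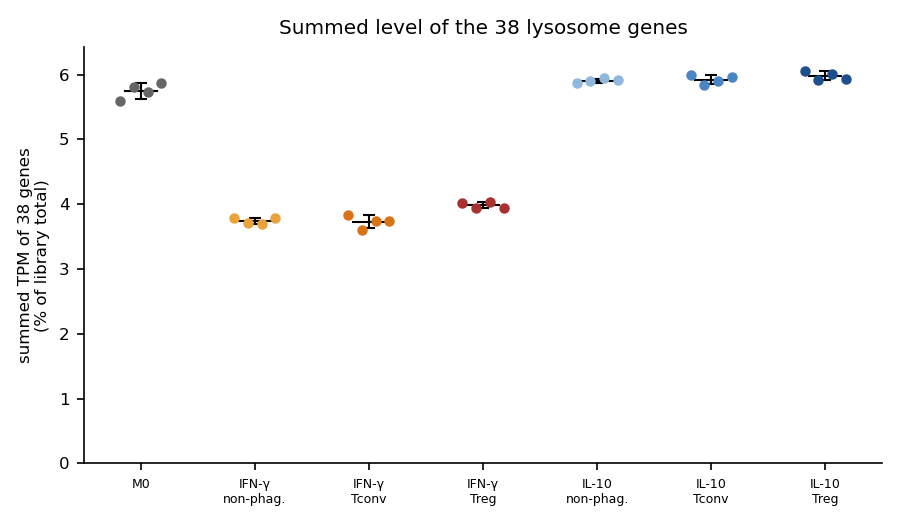
Summed TPM of the 38 genes as a percentage of the library total (y axis) in each library (points) by group, with mean and SD (n = 4). IFN-γ libraries lie between 3.60% and 4.03% and all others between 5.59% and 6.06%.

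Promoters were read for 35 of the 38 genes, from 250 bases before to 50 bases after each RefSeq start (GRCm38.p6). The E-box core CACGTG, which reads the same on both strands, was present in 10 of them (28.6%), against 8.09% of all 27025 genes with a window of that length. The genes were Ctsa, Ctsd, Ctsl, Lgmn, Gaa, Gla, Glb1, Naglu, Lamp1 and Mcoln1. The longer form TCACGTGA, also the same on both strands and always containing the core, was in 4 of 35 (11.4%: Ctsa, Ctsd, Gla and Mcoln1) against 1.12% of all genes. The stretches below are shown because Mcoln1 had the largest difference after Treg uptake, Gaa, Ctsd and Naglu were among the largest falls under IFN-γ, Ctsl and Lgmn were among the largest rises under IL-10, and Lamp1 and Gla, with Mcoln1 and Ctsd, hold more than 1 core. They run 5′ to 3′ on the gene's strand, with the core in capitals.
Mcoln1 (chr8:3500442-3500485, plus strand): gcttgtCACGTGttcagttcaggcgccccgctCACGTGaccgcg
Lamp1 (chr8:13159094-13159157, plus strand): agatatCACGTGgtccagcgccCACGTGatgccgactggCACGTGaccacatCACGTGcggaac
Gla (chrX:134601188-134601238, minus strand): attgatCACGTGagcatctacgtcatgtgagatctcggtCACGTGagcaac
Ctsd (chr7:142387914-142387931, minus strand): gcgtctCACGTGacccgt
Ctsl (chr13:64370745-64370762, minus strand): agaagcCACGTGctgatc
Lgmn (chr12:102439130-102439147, minus strand): gtctgtCACGTGgtccat
Gaa (chr11:119267817-119267834, plus strand): tgcgatCACGTGtttgac
Naglu (chr11:101070015-101070032, plus strand): tcaggtCACGTGgcccga
Lamp1 has 4 cores between 61 and 15 bases before its start, and Mcoln1 has 2, at 71 and 45 bases before, the nearer of them in the longer form. Ctsd also has 2, at 245 and 98 bases before its start, of which the nearer is printed. A match describes the letters of this window and not binding. Genes with the core and genes without it were among those called. After Treg against Tconv uptake under IFN-γ, 6 of the 10 genes with it were called higher and 1 lower. Of the 25 without it, 9 were called higher and 2 lower, where 5.40% and 7.30% of all genes tested were. For Treg uptake against none under IFN-γ, 4 and 1 of the 10 were called higher and lower, against 3 and 1 of the 25. Of all genes, 3.00% and 5.30% were. For IL-10 against M0 without uptake, 2 and 4 of the 10 were called higher and lower, against 5 and 9 of the 25. Of all genes, 13.7% and 12.8% were. For IFN-γ against M0 without uptake the counts were 2 and 8 of the 10, against 7 and 15 of the 25 (all genes 27.1% and 25.8%). For IFN-γ against IL-10 without uptake they were 1 and 8 of the 10, against 5 and 16 of the 25 (all genes 26.2% and 24.8%). A link between the core and the calls was not tested.

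The first comparison asks how IFN-γ macrophages that took up no T cells differ from M0. Most lysosome genes were lower: 24 of 38 (63.2%) were called lower, where 25.8% of all 13631 genes tested were, and 11 (28.9%) were called higher, where 27.1% of all genes were (limma, Benjamini-Hochberg adjusted p under 0.05, the rule for every call here). Of the 7315 genes averaging at least 10 TPM, a level closer to that of the list, 31.0% were called lower and 32.8% higher. The median log2 fold change was -0.30 for the 38 genes and 0.00 for all genes. All 11 glycosidases and sulfatases were called lower, as were 6 of 11 peptidases with 4 higher. Without scaling, the split was 28 lower and 3 higher.

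Gaa, the acid α-glucosidase that clears glycogen, had 34.9, 38.2, 36.0 and 34.2 TPM in the IFN-γ non-phagocytic libraries and 105, 108, 104 and 107 TPM in M0 (log2 fold change -1.25, SE 0.05, adjusted p 1.73e-07). The groups were far apart, and the other IFN-γ libraries had 29.1 to 42.2 TPM. Ctsd, cathepsin D and the main aspartic peptidase of lysosomes, had 4847, 4613, 4792 and 4827 TPM against 11447, 12152, 11916 and 12469 TPM (-1.04, SE 0.04, adjusted p 1.09e-07). Ctsk, cathepsin K, a collagen-degrading peptidase best known in osteoclasts, had 15.9, 18.9, 17.1 and 17.9 TPM against 42.6, 44.1, 48.0 and 42.6 TPM (-1.02, SE 0.07, adjusted p 7.02e-06). Osteoclast markers beside it summed to 0.62 to 6.86 TPM in all 28 libraries. Tpp1, a tripeptidyl peptidase, had 155, 154, 160 and 179 TPM against 342, 333, 367 and 353 TPM (-0.81, SE 0.06, adjusted p 6.30e-06). Naglu, which trims heparan sulfate, had 90.8, 93.2, 97.9 and 96.9 TPM against 189, 197, 190 and 207 TPM (-0.75, SE 0.05, adjusted p 2.25e-06). For these 5 genes every IFN-γ library lay below every M0 library before any scaling.

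Mcoln1 went the other way, with 162, 159, 131 and 170 TPM under IFN-γ and 85.0, 95.8, 97.7 and 112 TPM in M0 (0.96, SE 0.11, adjusted p 9.82e-05), and the groups did not overlap. Tfeb had 70.4, 84.8, 79.1 and 70.3 TPM against 56.3, 58.2, 55.3 and 57.4 TPM (0.70, SE 0.07, adjusted p 3.22e-05), higher in every library. Its relative Tfe3 was lower in every library, with 49.9, 41.5, 47.0 and 45.1 TPM against 88.9, 73.3, 77.1 and 81.6 TPM (-0.50, SE 0.08, adjusted p 5.70e-04). The 2 regulators thus differed from M0 in opposite directions.

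The other 9 genes called higher were Acp5, the tartrate-resistant phosphatase (0.59, SE 0.17), the peptidases Ctsh (0.48, SE 0.07), Ctss (0.38, SE 0.02), Lgmn (0.17, SE 0.02) and Ctsz (0.12, SE 0.04), the acid ceramidase Asah1 (0.33, SE 0.04), the thioesterase Ppt1 (0.33, SE 0.08), the tetraspanin Cd63 (0.31, SE 0.03) and the acid phosphatase Acp2 (0.30, SE 0.08). Their size rests on the scaling. Without it Ctsh, Asah1, Ppt1, Cd63, Acp2 and Acp5 were not called, and Lgmn (-0.12) and Ctsz (-0.17) were lower. The TPM of Lgmn show this: 993, 983, 1000.2 and 985 under IFN-γ and 1095, 1063, 1076 and 1073 in M0. With a correction for GC content and length the value of Ctss was 0.00 (adjusted p 0.990, range over all alternatives 1.34e-11 to 0.990). Ctsz was not called without M0 library 1 or 3 or without IFN-γ non-phagocytic library 2 or 4. T cell markers (10 of 10) were called higher and stromal markers (4 of 4) lower in the same comparison, with summed levels of 393 to 691 against 35.7 to 116 TPM and of 2.49 to 5.07 against 91.2 to 108 TPM, and their part in these differences was not tested.

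Under IL-10 without uptake, 10 of 38 genes (26.3%) were called higher than in M0 and 13 (34.2%) lower, where 13.7% and 12.8% of all genes were. Among the 7315 genes averaging at least 10 TPM these shares were 19.8% and 15.6%. Of the 11 peptidases 6 were called higher and 2 lower (Ctsd and Ctsk), and of the 11 glycosidases and sulfatases 1 was called higher and 5 lower. Ctsc, cathepsin C, the dipeptidyl peptidase that activates granule proteases, had 152, 148, 146 and 141 TPM under IL-10 against 55.2, 53.4, 54.7 and 47.3 TPM in M0 (1.44, SE 0.05, adjusted p 1.55e-07). Ppt1 had 122, 134, 121 and 120 TPM against 61.4, 58.4, 59.9 and 56.8 TPM (1.04, SE 0.04, adjusted p 3.36e-07). Ppt1 shares 129 exonic bases with Cap1 on the other strand (280 TPM on average), and the strand setting of the counting is not given in the sources used here. Lgmn, legumain, the asparagine endopeptidase, had 2018, 2069, 2036 and 2015 TPM, close to 1.87-fold above its M0 values given before (0.90, SE 0.02, adjusted p 9.50e-09).

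Ctsl, cathepsin L, had 3441, 3533, 3370 and 3439 TPM against 2153, 2156, 2142 and 2120 TPM in M0 (0.67, SE 0.02, adjusted p 6.92e-08). Ctsh, an aminopeptidase, had 365, 361, 327 and 340 TPM against 240, 231, 246 and 218 TPM (0.56, SE 0.04, adjusted p 2.62e-05). Ctsb, cathepsin B, had 13605, 13868, 14146 and 13816 TPM against 9250, 9495, 9529 and 9571 TPM (0.54, SE 0.03, adjusted p 1.38e-06). In each of these 6 peptidases and Ppt1 no IL-10 library fell to the level of any M0 library, the remaining one being Ctss (0.46, SE 0.02), the cathepsin that processes invariant chain. Asah1 (0.34, SE 0.04), Manba, a β-mannosidase (0.22, SE 0.05), and Gm2a, the GM2 activator (0.08, SE 0.02), completed the genes called higher. Gm2a was lost without M0 library 1, 2, 3 or 4 or IL-10 library 2, 3 or 4. Tfeb had 48.8, 42.0, 44.7 and 43.9 TPM, lower than in every M0 library (-0.35, SE 0.05, adjusted p 6.03e-04). Tfe3 had 82.2, 74.9, 87.3 and 83.1 TPM and overlapped M0 (0.02, SE 0.07, adjusted p 0.892). Other markers moved in the same comparison without overlap of their summed levels: stromal markers (4 of 4 called lower) had 65.6 to 72.1 against 91.2 to 108 TPM in M0, and IFN-γ response genes (4 of 6 called higher) 795 to 853 against 512 to 536 TPM. Macrophage markers (5 of 8 called higher and 3 lower) summed to 17030 to 17318 against 19878 to 20691 TPM, and neutrophil markers (1 of 2 called lower) to 26.0 to 29.8 against 36.6 to 40.0 TPM. Their part in the lysosome differences was not tested.

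**Figure D3:**
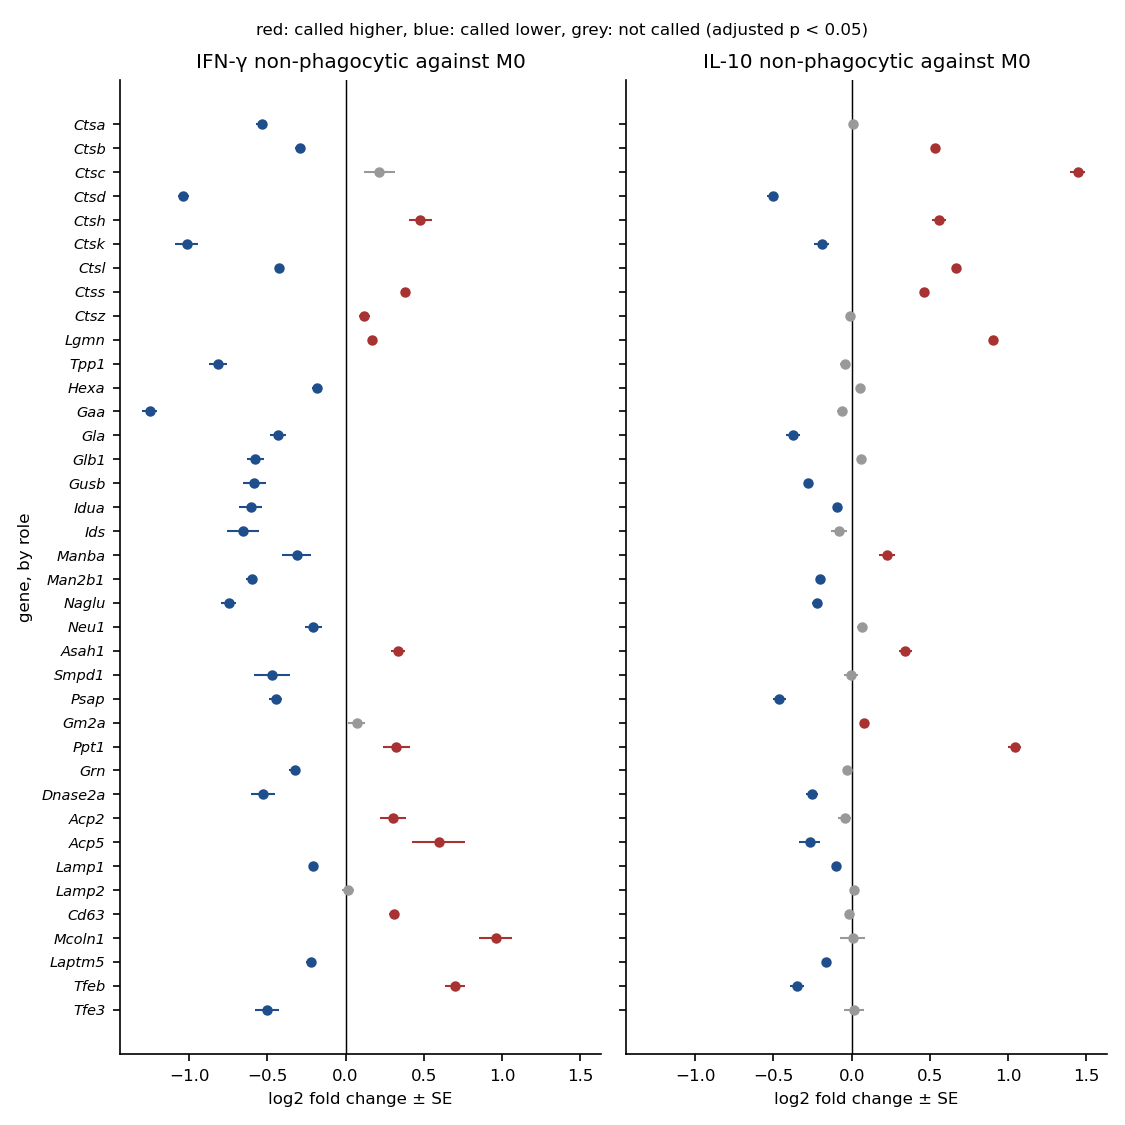
Log2 fold change with SE (x axis) of each lysosome gene (y axis, ordered by role) for IFN-γ non-phagocytic against M0 libraries (left) and IL-10 non-phagocytic against the same M0 libraries (right), 4 libraries per group. Red marks genes called higher, blue genes called lower, grey genes not called: all 11 glycosidases and sulfatases lie below 0 on the left, and Ctsc has the largest value on the right (1.44).

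Set directly against IL-10 without uptake, IFN-γ macrophages had 25 of 38 genes (65.8%) called lower, where 24.8% of all genes were, and 6 (15.8%) called higher, where 26.2% were. Genes averaging at least 10 TPM were called lower in 30.5% and higher in 31.2%. The median was -0.30, against 0.00 for all genes, and without scaling the split was 33 lower and 3 higher. Lower genes included 9 of 11 peptidases and 10 of 11 glycosidases and sulfatases. Ctsc (49.1, 46.3, 45.6 and 60.4 TPM under IFN-γ) had a log2 fold change of -1.23 (SE 0.09, adjusted p 4.89e-06), Gaa (105, 97.5, 105 and 102 TPM under IL-10) had -1.19 (SE 0.05, adjusted p 2.35e-07) and Ctsl (1300.3, 1275, 1306 and 1331 TPM under IFN-γ) had -1.10 (SE 0.02, adjusted p 5.07e-09). None of the 3 overlapped between the groups. Tfeb (1.05, SE 0.07, adjusted p 4.33e-06), Mcoln1 (0.95, SE 0.08, adjusted p 1.51e-05) and Acp5 (0.86, SE 0.17, adjusted p 0.00245) were called higher under IFN-γ.

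Mcoln1 had 96.1, 104, 97.9 and 97.2 TPM under IL-10, below every IFN-γ non-phagocytic library. Acp5 had 15.2, 16.4, 27.8 and 17.6 TPM under IFN-γ and 13.0, 11.0, 12.1 and 12.8 TPM under IL-10, so that 1 IFN-γ library stood well above the rest of its group. Tfe3 was lower under IFN-γ (-0.52, SE 0.07, adjusted p 3.19e-04), without overlap. The remaining genes called higher were Acp2 (0.35, SE 0.08), Cd63 (0.32, SE 0.03) and Ctsz (0.13, SE 0.03). Without scaling Acp2 (0.05) and Cd63 (0.02) were not called and Ctsz was lower (-0.17), and these comparisons share the IFN-γ and IL-10 libraries with those against M0. T cell markers (10 of 10 called higher) summed to 393 to 691 TPM under IFN-γ and 63.8 to 76.3 TPM under IL-10, and stromal markers (4 of 4 called lower) to 2.49 to 5.07 and 65.6 to 72.1 TPM, and their part was not tested.

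Within IFN-γ, macrophages that took up Treg differed from those that took up Tconv cells in 19 of the 38 genes. Called higher after Treg uptake were 16 (42.1%), where 5.40% of all genes were, and called lower were 3 (7.89%), where 7.30% were. The median was 0.17 for the lysosome genes, 0.04 for all genes and 0.08 for the 7315 genes averaging at least 10 TPM. Of the latter, 9.38% were called higher and 9.39% lower. By role, 6 of 11 peptidases and 5 of 11 glycosidases and sulfatases were called higher. So were 1 of 6 genes grouped under lipid degradation (Psap), the nuclease Dnase2a and 3 of 5 membrane proteins. The effect was small for each gene, between 0.13 (Psap) and 0.41 (Ctsl) on the log2 scale.

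Ctsl had 1470, 1590, 1549 and 1532 TPM after Treg uptake and 1312, 1177, 1268 and 1292 TPM after Tconv uptake (0.41, SE 0.05, adjusted p 0.00263). All Treg-phagocytic libraries were above all Tconv-phagocytic ones. Cd63, a tetraspanin of late endosomes and lysosomes, had 1744, 1578, 1720 and 1666 TPM against 1476, 1326, 1495 and 1462 TPM (0.35, SE 0.05, adjusted p 0.00334), and Hexa, the α subunit of β-hexosaminidase, had 698, 695, 685 and 672 TPM against 628, 573, 600.1 and 614 TPM (0.31, SE 0.04, adjusted p 0.00286). Neither overlapped between the groups. Cd63 and Hexa were singled out after their values were seen, because with Ctsl and Lgmn (0.30, SE 0.05) they were the 4 genes called under every setting tried. Also called higher were Ctss (0.33, SE 0.04), Ctsd (0.32, SE 0.05), Ctsz (0.25, SE 0.04), Ctsb (0.24, SE 0.04) and Man2b1, an α-mannosidase (0.20, SE 0.05). For Ctsb and Man2b1 the gap in TPM was small: the lowest Treg-phagocytic values were 6653 and 148.1, the highest Tconv-phagocytic values 6626 and 147.7. Gusb (0.30), Naglu (0.29), Glb1 (0.29), Dnase2a (0.22), Lamp1 (0.17), Lamp2 (0.16) and Psap (0.13) were called after scaling but overlapped in TPM.

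Mcoln1 stood against the rest. It had 70.6, 61.7, 101 and 89.3 TPM after Treg uptake and 148, 220, 150 and 172 TPM after Tconv uptake, about 1.96-fold lower (-0.97, SE 0.18, adjusted p 0.0119). This call was lost without the filter on low values (adjusted p 0.0523) and with a replicate block by file number (0.0531, range over all alternatives 1.93e-06 to 0.0531), at the same fold change. The groups did not overlap. In TPM as deposited, 2 of the Treg-phagocytic libraries were in the range of M0 (85.0 to 112 TPM) and 2 below it. Scaling raises Treg-phagocytic values against M0 (mean log2 factors -0.22 and 0.15), so this placement holds only before it. Acp2 had 32.4, 36.4, 34.8 and 28.3 TPM against 48.2, 51.2, 47.6 and 41.7 TPM (-0.39, SE 0.10, adjusted p 0.0381), and Laptm5, a lysosomal membrane protein of blood cells, had 715, 596, 716 and 696 TPM against 820, 880, 900.3 and 884 TPM (-0.23, SE 0.06, adjusted p 0.0377). Both were separate between the groups in every library. Tfeb had 65.6, 85.6, 80.3 and 67.9 TPM against 64.9, 78.5, 66.7 and 79.9 TPM (0.17, SE 0.11, adjusted p 0.394), and Tfe3 had 38.02, 44.5, 53.0 and 34.7 TPM against 57.9, 47.7, 50.5 and 49.9 TPM (-0.16, SE 0.13, adjusted p 0.486). Both regulators overlapped between the groups.

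The count of 19 was less stable than the direction of single genes. It was 10 without Tconv-phagocytic library Ax647-1 or Ax647-2, 11 without Treg-phagocytic library BV421-1, and 12 without Tconv-phagocytic library BV421-2 or Treg-phagocytic library Ax647-1, and it was split into 7 higher and 5 lower without scaling and 8 higher and 3 lower with scaling to 1 reference library. Acp2 lost its call without Tconv library BV421-1, BV421-2 or Ax647-1 or Treg library Ax647-1, BV421-1 or BV421-2, and Laptm5 lost it without Tconv library BV421-2, Ax647-1 or Ax647-2 or Treg library Ax647-1 or BV421-1. Acp2 was also not called by limma without the filter (adjusted p 0.0813), with a GC and length correction (0.0973), a block by title (0.120) or the title dye as covariate (0.0586). Laptm5 was not called without the filter (0.101), with a block by file number (0.0828) or by title (0.0885), or with the title dye (0.0523). Macrophage markers moved too: 5 of 8 were called higher and Mertk lower, with a summed level of 20778 to 21299 TPM after Treg and 16527 to 18860 TPM after Tconv uptake. IFN-γ response genes were lower, 5 of 6 called, with 983 to 1277 against 1757 to 2341 TPM. T cell markers were called in 0 of 10 (limma), with 480 to 754 against 481 to 620 TPM. Treg markers such as Foxp3 summed to 40.2 to 62.8 TPM after Treg and 49.0 to 64.6 TPM after Tconv uptake. In IFN-γ non-phagocytic libraries they summed to 42.5 to 72.9 TPM, so the Treg marker RNA did not set these groups apart. Between 14148 and 15159 genes were above 0 after Treg and between 15662 and 16295 after Tconv uptake, so the groups were also apart in library richness. The part of the macrophage markers, the IFN-γ response genes and the richness in the lysosome differences was not tested.

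**Figure D4:**
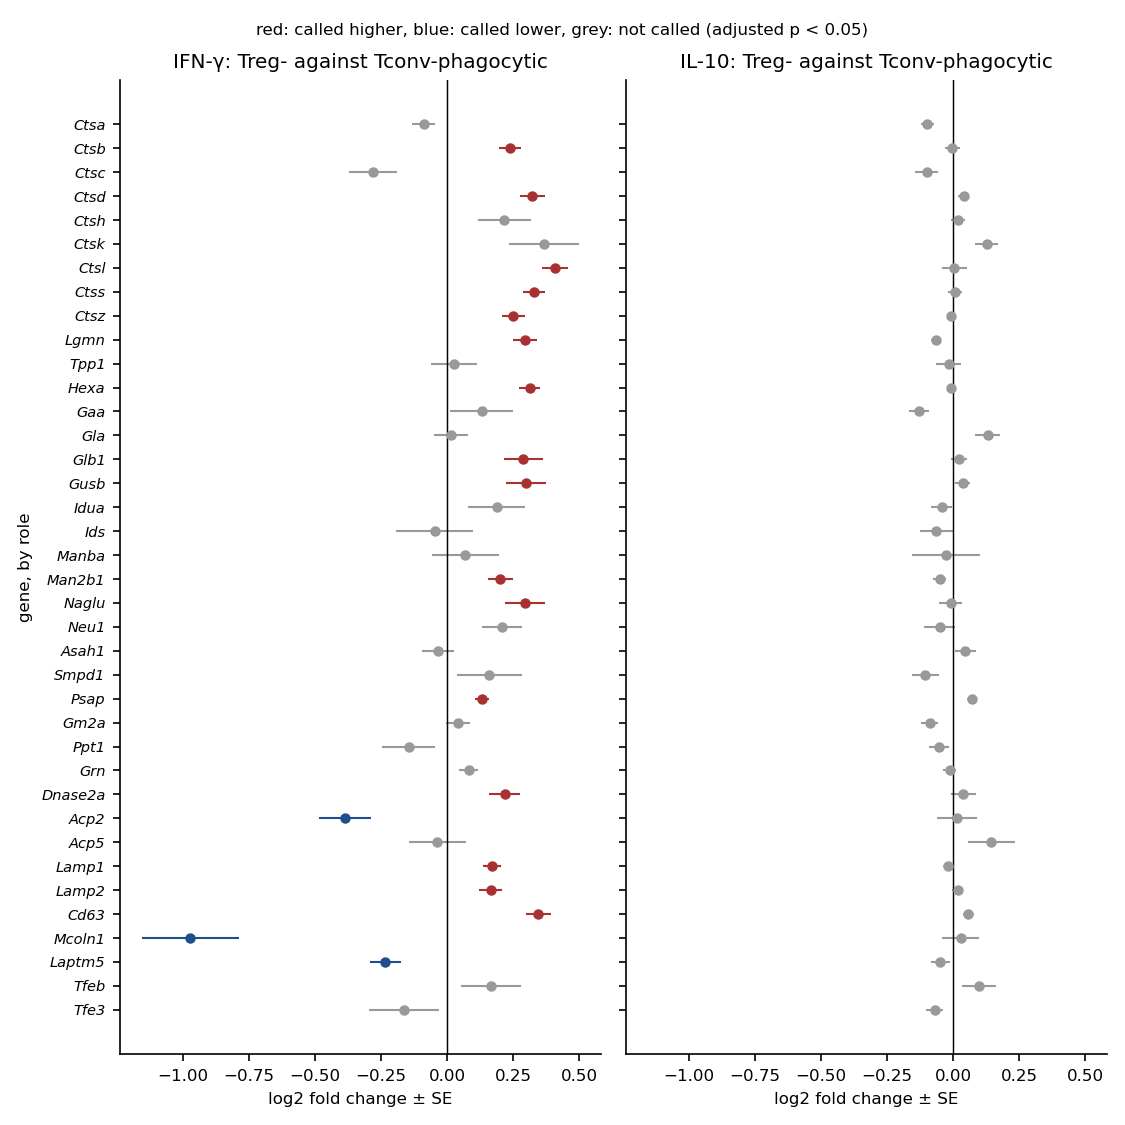
Log2 fold change with SE (x axis) of each lysosome gene (y axis, ordered by role) for Treg- against Tconv-phagocytic macrophages under IFN-γ (left) and IL-10 (right), 4 libraries per group. Red marks genes called higher, blue genes called lower, grey genes not called: 16 genes are called higher and 3 lower under IFN-γ, with Mcoln1 lowest at -0.97, and none is called under IL-10.

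Against IFN-γ macrophages that took up neither, Treg-phagocytic macrophages had 8 genes (21.1%) called higher, where 3.00% of all genes were, and 2 (5.26%) called lower, where 5.30% were. Among genes averaging at least 10 TPM, 5.17% were called higher and 7.07% lower. The 8 were Ctsl (0.31, SE 0.04, adjusted p 0.00362), Cd63 (0.30), Ctsd (0.29), Hexa (0.28), Ctss (0.23), Lgmn (0.22), Ctsb (0.19) and Naglu (0.18). Every Treg-phagocytic value of Ctsl was above the non-phagocytic values given before, and of Mcoln1 below them (-0.89, SE 0.16, adjusted p 0.0152). Mcoln1 was not called without non-phagocytic library 4 (adjusted p 0.0508, range over all alternatives 1.06e-05 to 0.0718). Ctsc had 35.6, 32.9, 33.8 and 38.1 TPM after Treg uptake, below every non-phagocytic library (-0.43, SE 0.11, adjusted p 0.0486), and leaving out any of the 8 libraries removed this call. Tfeb (0.05, SE 0.11, adjusted p 0.839) and Tfe3 (-0.05, SE 0.13, adjusted p 0.875) were near 0. Without scaling 7 genes were called higher and 6 lower, and 7 and 4 with scaling to 1 reference library. In the same comparison 4 of 6 IFN-γ response genes were called lower (983 to 1277 against 1945 to 2235 TPM summed) and 6 of 8 macrophage markers higher and 1 lower (20778 to 21299 against 17135 to 17860 TPM). Neutrophil markers, 0 of 2 called, summed to 31.9 to 41.7 against 45.8 to 62.6 TPM, and 14148 to 15159 against 15376 to 15723 genes were above 0. None of the 4 ranges overlapped, and their part in the lysosome differences was not tested.

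Uptake of Tconv cells under IFN-γ gave no call among the 38 genes by limma, and 0% of all genes were called higher and 0.00734% lower. At an unadjusted p under 0.05 there were 3 lysosome genes, where 6.38% of all genes passed that mark. The median was -0.05, and 31 of 38 genes had a negative value, between -0.27 and 0.12 for the whole list. In a model of all 28 libraries 1 gene was called. Tfeb was -0.12 (SE 0.09, adjusted p 0.847) and Tfe3 0.12 (SE 0.09, adjusted p 0.844). These 3 IFN-γ comparisons share their libraries, so they are not separate evidence.

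Under IL-10 the kind of T cell made no called difference. No gene was called between Treg- and Tconv-phagocytic macrophages (limma), 9 had an unadjusted p under 0.05, where 13.9% of all genes did, and 0.470% and 0.932% of all genes were called higher and lower. Values lay between -0.13 and 0.14 with a median of -0.01. A correction for GC content and length gave 1 call. Mcoln1 had 93.1, 89.0, 102 and 99.5 TPM after Treg uptake and 90.1, 106, 85.1 and 96.1 TPM after Tconv uptake (0.03, SE 0.07), and the groups overlapped. Tfeb was 0.10 (SE 0.06, adjusted p 0.561) and Tfe3 -0.07 (SE 0.03, adjusted p 0.386). Stromal markers, 4 of 4 called lower, summed to 22.6 to 26.0 TPM after Treg and 124 to 129 TPM after Tconv uptake.

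Under IL-10, after Treg uptake 16 genes (42.1%) were called higher than in non-phagocytic macrophages, where 6.91% of all genes were, and 1 (2.63%) lower, where 4.49% were. After Tconv uptake 13 (34.2%) were called higher and 2 (5.26%) lower, where 4.23% and 1.80% of all genes were. For genes averaging at least 10 TPM the shares were 10.3% and 6.08% after Treg uptake, and 6.43% and 2.58% after Tconv uptake. Medians were 0.10 and 0.10, against 0.00 and 0.01 for all genes, and the non-phagocytic libraries are shared. Without scaling the splits were 8 higher and 6 lower after Treg uptake and 7 higher and 3 lower after Tconv uptake. The summed share of the 38 genes after either uptake overlapped that of the non-phagocytic libraries.

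Psap had 12532, 12422, 12235 and 12214 TPM after Treg uptake and 10521, 10419, 10597 and 10741 TPM without uptake (0.31, SE 0.02, adjusted p 7.34e-05). Every phagocytic library was above every non-phagocytic one, and Tconv uptake gave 0.24 (SE 0.02). Ctsl was the gene against the majority: it had 2801, 2448, 2436 and 2460 TPM after Treg uptake (-0.36, SE 0.05, adjusted p 0.00250) and 2578, 2501, 2509 and 2515 TPM after Tconv uptake (-0.37, SE 0.02, adjusted p 4.54e-05), all below the non-phagocytic values given before. Acp5 had 15.96, 14.7, 13.4 and 17.1 TPM after Treg uptake, above every non-phagocytic library (0.37, SE 0.08, adjusted p 0.0278), but lost its call without non-phagocytic library 2, 3 or 4 or Treg library Ax647-1, Ax647-2 or BV421-2.

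After Tconv uptake Ctsc had 177, 159, 174 and 165 TPM (0.28, SE 0.04, adjusted p 0.00551), above every library without uptake. Ctsk had 29.2, 32.6, 30.7 and 31.2 TPM against 38.1, 39.9, 40.6 and 37.5 TPM (-0.25, SE 0.04, adjusted p 0.0158), without overlap. In a model of all 28 libraries neither Ctsc (adjusted p 0.0643) nor Ctsk (0.187) was called, and Ctsk was not called with a replicate block by file number (0.0590). Called higher in both were Ctsb, Ctsc, Ctsh, Ctsz, Lgmn, Hexa, Asah1, Psap, Gm2a, Lamp1 and Cd63, which share their controls. Gla (0.30), Acp5, Glb1 (0.13), Gusb (0.13) and Naglu (0.10) were called after Treg uptake, and Ppt1 (0.19) and Ctsa (0.10) after Tconv uptake. Ctsa shares 495 exonic bases with Pltp on the other strand, which averaged 1574 TPM. Tfeb was 0.18 (SE 0.06, adjusted p 0.101, but 0.27 and 0.0108 with a GC and length correction, range over all alternatives 0.0108 to 0.343) and Tfe3 -0.15 (SE 0.05, adjusted p 0.101, but 0.0329 without non-phagocytic library 2, range over all alternatives 0.0186 to 0.587) after Treg uptake, and 0.09 (SE 0.06, adjusted p 0.469) and -0.08 (SE 0.05, adjusted p 0.389) after Tconv uptake. T cell markers rose in the same comparisons, 10 of 10 called after Treg uptake (147 to 177 TPM) and 6 of 10 after Tconv uptake (89.4 to 132 TPM) against 63.8 to 76.3 TPM without uptake. Stromal markers, at 65.6 to 72.1 TPM without uptake, were at 22.6 to 26.0 TPM after Treg uptake (4 of 4 called lower) and 124 to 129 TPM after Tconv uptake (3 of 4 called higher). IFN-γ response genes, at 795 to 853 TPM without uptake, were at 981 to 1017 TPM (3 of 6 called higher) and 1082 to 1151 TPM (2 of 6 called higher). The part of these markers in the lysosome differences was not tested.

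**Figure D5:**
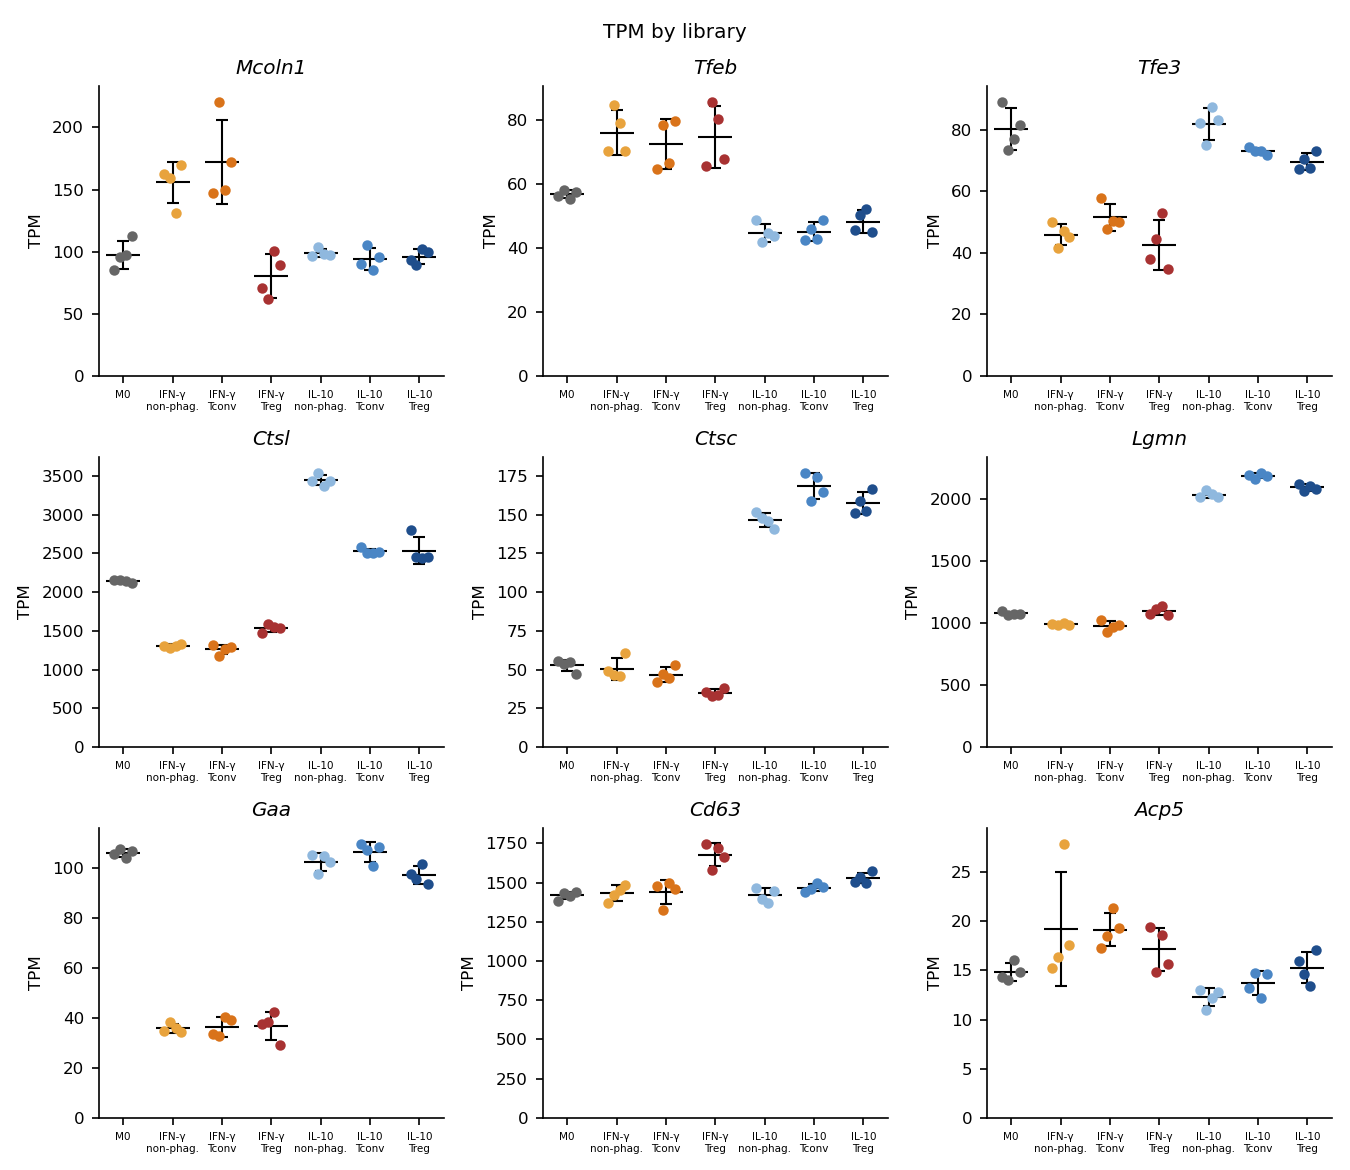
TPM as deposited (y axis) of 9 lysosome genes in each library (points) by group, with mean and SD (n = 4). Mcoln1 is at 131 to 220 TPM in IFN-γ non-phagocytic and Tconv-phagocytic libraries and at 61.7 to 112 TPM in all others, and Ctsl under IL-10 is at 3370 to 3533 TPM without uptake and 2436 to 2801 TPM after uptake.

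Whether the response to uptake differed between the cytokines was tested as a difference of differences (IFN-γ minus IL-10). Among genes averaging at least 10 TPM, 9.34% were called positive and 10.3% negative for Treg against Tconv uptake. These shares were 5.17% and 8.52% for Treg uptake against none, and 0.26% and 2.45% for Tconv uptake against none. For Treg against Tconv uptake, 13 genes (34.2%) had a more positive response under IFN-γ, where 5.82% of all genes did, and 2 (5.26%) a more negative one, where 7.78% did. The largest were Mcoln1 (-0.999, SE 0.20, adjusted p 0.00341), Ctsl (0.40, SE 0.07, adjusted p 0.00117) and Acp2 (-0.40, SE 0.13, adjusted p 0.0488). Tfeb (0.07, SE 0.13, adjusted p 0.796) and Tfe3 (-0.09, SE 0.14, adjusted p 0.730) did not pass. The split was 6 and 3 without scaling. Acp2 lost its call without IFN-γ Tconv library BV421-1 (adjusted p 0.0705, range over all alternatives 0.0117 to 0.131), BV421-2 or Ax647-1, IFN-γ Treg library Ax647-1 or BV421-2, IL-10 Tconv library BV421-2, Ax647-1 or Ax647-2, or IL-10 Treg library Ax647-1, BV421-1 or BV421-2. This call was also lost with a pseudocount of 0.1, without the filter, with a GC and length correction, a block by title or either dye covariate.

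For Treg uptake against none, 3 genes (7.89%) had a more positive response under IFN-γ, where 3.22% of all genes did, and 6 (15.8%) a more negative one, where 6.22% did. Ctsl (0.68, SE 0.06, adjusted p 6.23e-06) was higher after uptake under IFN-γ and lower under IL-10. Ctss (0.23, SE 0.03) and Ctsd (0.23, SE 0.03) were the others on that side. Mcoln1 (-0.92, SE 0.17, adjusted p 0.00264), Ctsc (-0.61, SE 0.11, adjusted p 0.00251) and Acp2 (-0.51, SE 0.13, adjusted p 0.0175) led the other side, with Asah1 (-0.33), Gm2a (-0.32) and Psap (-0.21). Tfeb was -0.14 (SE 0.13, adjusted p 0.588) and Tfe3 0.10 (SE 0.14, adjusted p 0.730).

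For Tconv uptake against none, 1 gene (2.63%) was on the positive side, where 0.205% of all genes were, and 7 (18.4%) on the negative side, where 1.47% were. The positive one was Ctsl (0.27, SE 0.05, adjusted p 0.00523). The others were Ctsh (-0.47, SE 0.10, adjusted p 0.0230), Gm2a (-0.45, SE 0.07, adjusted p 0.00249), Psap (-0.27), Ctsz (-0.26), Lgmn (-0.26), Lamp1 (-0.22) and Hexa (-0.22). Without scaling 1 and 2 genes were called, and with a GC and length correction 0 and 6. Ctsh lost its call without IL-10 non-phagocytic library 3 or 4 or IL-10 Tconv library BV421-2, Ax647-1 or Ax647-2. Tfeb was -0.20 (SE 0.11, adjusted p 0.521) and Tfe3 0.19 (SE 0.10, adjusted p 0.466).

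A second list of 80 lysosome genes, all tested, gives the setting. After Treg against Tconv uptake under IFN-γ 18 (22.5%) were called higher, where 5.40% of all genes were, and 7 (8.75%) lower, close to the 7.30% of all genes. Of 16 V-ATPase genes 8 were higher and 3 lower (Atp6v1d -0.47, Atp6v0a1 -0.35 and Atp6v1b2 -0.25). The other 4 lower genes were Fnip1 (-0.76, SE 0.12) and Flcn (-0.48, SE 0.09), which encode the partners of a complex that acts on the Rag GTPases upstream of TFEB, Igf2r (-0.67, SE 0.11), a mannose 6-phosphate receptor, and Gnptab (-0.66, SE 0.15), which makes the mannose 6-phosphate tag. Fnip1 had 23.1, 23.7, 23.5 and 27.0 TPM after Treg uptake and 36.8, 52.0, 50.1 and 44.7 TPM after Tconv uptake, without overlap. The Treg-phagocytic values were near those of M0 (21.6 to 25.8 TPM) only as deposited. Scaling raises them against M0 (mean log2 factors -0.22 and 0.15). The sulfatases Arsb (0.63) and Sgsh (0.57) had the largest higher values. Against no uptake 11 (13.8%) were higher, where 3.00% of all genes were, and 4 (5%) lower, where 5.30% were (Fnip1 -0.72, Igf2r -0.69, Atp6v1d -0.44 and Flcn -0.38), with Arsb highest at 0.62. Tconv uptake gave 0 calls (limma), with 5 genes at an unadjusted p under 0.05, a mark that 6.38% of all genes passed.

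Under IL-10, 28 of the 80 (35.0%) were called higher, where 6.91% of all genes were, and 1 (1.25%) lower, where 4.49% were (Rptor, a subunit of mTORC1, -0.33), after Treg uptake, including 11 of 16 V-ATPase genes. The largest were Cst7, cystatin F, an inhibitor of cathepsins (0.84), Atp6v1d (0.44), Lipa, the acid lipase (0.39), and Rragd, a Rag GTPase (0.38). After Tconv uptake 20 (25.0%) were higher, where 4.23% of all genes were, and 2 (2.50%) lower, where 1.80% were (Arsb -0.29 and Gpnmb -0.09), and between Treg and Tconv uptake Lipa (0.16) and Atp6v0d2 (0.21) were higher. Without uptake, IFN-γ against M0 gave 22 (27.5%) higher, near the 27.1% of all genes, and 34 (42.5%) lower, where 25.8% of all genes were, with 0 higher and 15 lower of 21 hydrolases and activators, and 8 higher and 6 lower V-ATPase genes. The largest were Cst7 (2.58), Atp6v1d (1.52), Npc1, the cholesterol exporter (-1.16), and Sgsh (-1.16). IFN-γ against IL-10 gave 23 (28.7%) higher, near the 26.2% of all genes, and 27 (33.8%) lower, where 24.8% were, with 10 V-ATPase genes higher and 1 lower, led by Cst7 (2.21), Ap1b1 (-1.75), Atp6v1d (1.58) and Sgsh (-1.31). IL-10 against M0 gave 13 (16.2%) higher, near the 13.7% of all genes, and 28 (35.0%) lower, where 12.8% were, with 1 V-ATPase gene higher and 9 lower, led by Ap1b1, an adaptor of Golgi sorting (0.95), Lipa (-0.86), Atp6v0d2 (-0.74) and Pla2g15 (0.60). The differences of differences gave 16 positive (20%, where 5.82% of all genes were) and 9 negative calls (11.2%, where 7.78% were) for Treg against Tconv uptake, with Slc38a9, an amino acid sensor of the lysosome (-1.02), Fnip1 (-0.94), Gnptab (-0.74) and Nagpa (0.72) largest. For Treg uptake against none there were 3 positive calls (3.75%, near the 3.22% of all genes: Arsb 0.78, Rptor 0.42 and Gpnmb 0.16) and 9 negative ones (11.2%, where 6.22% were), led by Cst7 (-1.19), Fnip1 (-0.97) and Atp6v1d (-0.88). For Tconv uptake against none there were 0 positive and 5 negative calls (6.25%, where 1.47% of all genes were), led by Atp6v1e1 (-0.27), Atp6v1g1 (-0.25), Cd68 (-0.23) and Lipa (-0.21).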

How the data were processed

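RNA of 28 mouse macrophage libraries was measured. Per the labels' protocols, RNA was extracted with RNAiso PLUS and libraries were made with a NEBNext Ultra II Directional kit from poly(A) RNA. The deposited values are TPM per Ensembl gene ID, per the file headers, and STAR, RSEM and mm10 are named in the submitters' processing notes. The files hold no counts, so the depth is unknown. Of 55487 gene IDs, 55141 had a symbol and 346 did not, and 0 of 378 library pairs were identical. For all 8 Treg-phagocytic libraries the title gives another dye than the library name, and the titles are used here.

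Tests used limma 3.58.1 in R 4.3.3 (lmFit, and eBayes with a trend) on the log2 of scaled TPM with a pseudocount of 1, fitted on the groups compared (4 groups for differences of differences). The 13631 genes reaching 1 TPM in 4 or more libraries were tested. Scaling was a trimmed mean of log2 ratios to the geometric mean library (30% of ratios and 5% of levels trimmed). A call needs a p under 0.05 after Benjamini-Hochberg adjustment over all 13631. The test was checked on simulated data. The fit was chosen because the spread differs between cytokines.

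Members, lists and tests were chosen with earlier results of these data known. Given library by library were, per comparison, up to 6 called genes with a log2 fold change of at least 0.5 or, where fewer than 3 reached it, the 3 largest, with Tfeb, Tfe3 and genes against the majority by value. Of the 80 other lysosome genes, up to 4 per comparison and those against the majority were named. Alternatives were the pseudocount, filter, scaling, a model of all libraries, GC and length, replicate blocks, dye and leaving out each library. Scaling without lysosome genes and scaling to 1 reference library were chosen after seeing the data.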

Additional observations from a re-analysis of the deposited data

Results flagged for a closer look

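Within groups, 3 of the 168 sets of 4 TPM values examined held a library far from the other 3, where chance gives about 1 in 20. Ctsl was 2800.82 TPM in IL-10 Treg-phagocytic library Ax647-1, against 2436.26 to 2459.83 TPM in the others. Laptm5 was 596.14 TPM in IFN-γ Treg-phagocytic library Ax647-2, against 696.37 to 716.22 TPM. Manba was 35.38 TPM in IL-10 Treg-phagocytic library BV421-1, against 24.20 to 25.18 TPM.

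The effect of the T cells differed between IFN-γ and IL-10 (log2 difference of differences, IFN-γ minus IL-10, limma) for 15 genes in Treg against Tconv uptake. Mcoln1 (-0.999) and Acp2 (-0.40) were negative. Positive were Ctsl (0.40), Lgmn (0.36), Ctss (0.32), Hexa (0.32), Naglu (0.30), Cd63 (0.29), Ctsd (0.28), Glb1 (0.26), Gusb (0.26), Ctsz (0.26), Man2b1 (0.25), Ctsb (0.24) and Lamp1 (0.19). In Treg uptake against none it differed for Mcoln1 (-0.92), Ctsc (-0.61), Acp2 (-0.51), Asah1 (-0.33), Gm2a (-0.32), Psap (-0.21), Ctsd (0.23), Ctss (0.23) and Ctsl (0.68). In Tconv uptake against none it differed for Ctsh (-0.47), Gm2a (-0.45), Psap (-0.27), Ctsz (-0.26), Lgmn (-0.26), Lamp1 (-0.22), Hexa (-0.22) and Ctsl (0.27).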

How the results depend on the processing

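Depth in reads is not known, so precision at low TPM cannot be set, and the libraries of a group may not be separate cultures. Replicate numbers gave no pairing: deviations of same-numbered libraries correlated at -0.067 to 0.085. Of the counts of called lysosome genes under the alternatives, 221 stayed within 1.5 times the value given and 25 did not. In the order used here the counts given were 19 (IFN-γ Treg against Tconv), 10 (IFN-γ Treg against none), 0 (IFN-γ Tconv against none), 0 (IL-10 Treg against Tconv), 17 (IL-10 Treg against none) and 15 (IL-10 Tconv against none). The first was 7 without the filter, 12 without scaling, 11 with scaling to 1 reference library, 10 with a replicate block by file number, 9 with that block and a GC and length correction, and 9 with a replicate block by title. The second was 5 without the filter, 22 in a model of all 28 libraries, 5 with the block and 6 with the block and GC correction. The third was 1 in a model of all libraries, and the fourth 1 with the GC correction. The fifth was 10 in a model of all libraries and 10 with the block. The sixth was 9 in a model of all libraries, 8 with the block and 9 with the block and GC correction. Differences of differences went from 15 to 9 without scaling (Treg against Tconv) and from 8 to 3 without scaling and 3 with the block and GC correction (Tconv against none). Leaving out 1 library gave 10 to 16, 7 to 9, 0 to 0, 0 to 0, 12 to 15 and 11 to 15 in the order above. The cause was not tested. Of the single-gene results, 1487 kept direction and call, 108 lost the call, 4 gained it and 21 changed sign. Signs changed without scaling for Ctsz (-0.17 against IL-10, -0.17 against M0) and Lgmn (-0.12) under IFN-γ, and with the GC correction for Ctsz (-0.0332) and Ctss (-0.000437) against M0. For IFN-γ Treg uptake against none Tfeb was -0.0293 without scaling, -0.00705 with the GC correction (-0.00705 with the block too) and -0.0242 to 0.119 leaving out 1 library, and Tfe3 was 0.0136 with the GC correction, block or not, and -0.151 to 0.0308 leaving out 1 library. Tfe3 under IL-10 against M0 was -0.0254 to 0.0609 leaving out 1 library. In the differences of differences Tfeb (Treg against Tconv) was -0.0548 without scaling, -0.0599 with the GC correction, block or not, and -0.00279 to 0.14 leaving out 1 library, and Tfe3 (Treg against none) was -0.00217 to 0.18.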
